A study of Homo sapiens with 12 samples.

Results

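Genes of the antiviral effector arm of the interferon response were followed in 3 human cancer cell lines: MX1, MX2, IFI27, IFI6, IFI44, IFI44L, SAMD9, SAMD9L, LGALS3BP and LY6E. These 10 genes, of 20545 gene symbols in the deposited expression values, were matched by symbol, and each symbol has 1 value per array. They were chosen from measured differences between treatments in these samples, so those differences are described here without a test of the genes. HCT116 is a colon carcinoma line. HL60 grows in suspension and derives from a promyelocytic leukaemia. SNU398 is a hepatocellular carcinoma line. Each line was given a combination treatment or 5-Aza-CdR alone, with 2 arrays in each of the 6 groups, 12 arrays in all. 5-Aza-CdR (decitabine) is a cytosine analogue that is built into DNA and traps DNA methyltransferases. The labels do not name the other component of the combination, a dose or a time, all 6 groups were treated, and no untreated sample was analysed here. They also do not say that replicates were separate cultures, so the p-values below cover the spread among these samples alone, and that spread may be technical.

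Interferons bind cell surface receptors, whose kinases JAK1 and TYK2 activate transcription factors of the STAT family. With IRF9 these form a complex that binds the interferon-stimulated response element (ISRE) in front of its target genes. The products of those genes block viruses at entry, in the cytoplasm, at the nuclear pore or at release. DNA methyltransferase inhibitors are known in other work to raise interferon-stimulated genes in cancer cells, a response that has been tied to transcripts of endogenous retroviruses.

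The genes fall into pairs and single genes by relationship and place in the genome (RefSeq, build GRCh38.p14). MX1 (chr21:41420558-41459214) and MX2 (chr21:41362027-41409393) encode dynamin-like GTPases, and 11164 bases separate them. IFI44 (chr1:78649789-78664078) and IFI44L (chr1:78620448-78646145) are paralogues that lie 3643 bases apart. SAMD9 (chr7:93099518-93117979) and SAMD9L (chr7:93130056-93148385) are paralogues 12076 bases apart. In each of these 3 pairs, 0 annotated protein-coding genes lie between the partners. IFI27 (chr14:94105894-94116690) and IFI6 (chr1:27666064-27672192) encode small hydrophobic proteins of 1 family, on different chromosomes. LGALS3BP (chr17:78971255-78979923) encodes a secreted glycoprotein that binds galectins, and LY6E a small protein anchored to the cell surface.

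Promoter windows, 250 bases before to 50 bases after an annotated transcript start, were taken from RefSeq (GRCh38.p14) for MX1 (3 starts), IFI27 and IFI44 (2 starts each), IFI6, IFI44L, SAMD9, SAMD9L and LGALS3BP. These are 12 windows of 8 genes, and MX2 and LY6E had no window in that table. The ISRE core was searched as GAAANNGAAA on both strands, and the interferon gamma-activated element GAS as TTCNNNGAA on both strands. The stretches that hold the matches are shown because most of these genes had an ISRE core match. They are written 5′ to 3′ on the strand of the gene, with each ISRE core match in capitals, and a match on the other strand appears as its complement read backwards.
MX1, first start, chr21:41420549-41420587, + strand: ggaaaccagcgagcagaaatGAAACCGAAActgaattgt
MX1, the third start, chr21:41431834-41431883, + strand: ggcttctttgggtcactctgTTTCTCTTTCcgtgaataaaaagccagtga
IFI27, chr14:94110608-94110670, + strand: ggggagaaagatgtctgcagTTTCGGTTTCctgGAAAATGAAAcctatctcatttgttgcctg
IFI6, chr1:27672256-27672368, - strand: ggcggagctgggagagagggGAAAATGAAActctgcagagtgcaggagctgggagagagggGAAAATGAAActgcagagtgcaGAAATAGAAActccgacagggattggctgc
IFI44, chr1:78649751-78649800, + strand: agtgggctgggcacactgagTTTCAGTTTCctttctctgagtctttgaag
IFI44L, chr1:78620264-78620404, + strand: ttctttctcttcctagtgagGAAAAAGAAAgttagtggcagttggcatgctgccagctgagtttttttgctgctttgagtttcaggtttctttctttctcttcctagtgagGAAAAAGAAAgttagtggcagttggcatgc
SAMD9, chr7:93118086-93118135, - strand: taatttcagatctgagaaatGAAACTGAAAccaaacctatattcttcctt
LGALS3BP, chr17:78979952-78980001, - strand: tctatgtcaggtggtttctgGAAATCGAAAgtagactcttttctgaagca

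An ISRE core match stood in a window of 7 of the 8 genes, all but SAMD9L. Among all 35116 promoter windows of the table, 3.57% held one, and among its 27305 genes 4.38% had at least 1 such window. IFI6 held 3 matches, which began at positions -156, -115 and -93 counted from the start. IFI27 held 2 on opposite strands, and IFI44L held 2 with the same 20 bases on both sides of each. The single LGALS3BP match began at -58 and that of SAMD9 at -136. The GAS letters occurred in 2 of the 8 genes, MX1 at the third start and IFI27, and 7.66% of all windows and 9.38% of all genes held them. In both genes the GAS match overlapped an ISRE core match. A match of letters describes the window only.

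**Figure D1:**
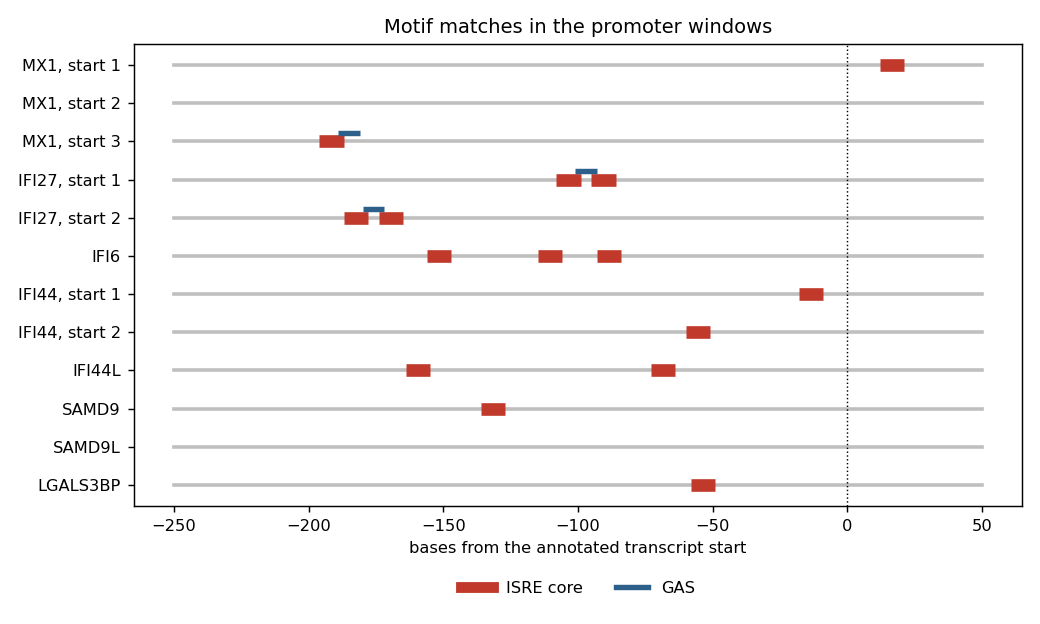
Matches to the ISRE core (red) and the GAS letters (blue) in the 12 promoter windows of 8 genes, by distance in bases from the annotated transcript start (dotted line). IFI6 has 3 ISRE core matches, the second MX1 start and SAMD9L have none, and each GAS match overlaps an ISRE core match.

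The windows differed in CG dinucleotides, the letters at which DNA methylation is placed. MX1 had 20, 30 and 6 in its 3 windows and IFI6 had 9. IFI27 had 4 and 6, and SAMD9 and LGALS3BP had 4 each. Both IFI44 windows and those of IFI44L and SAMD9L had 0. Over all windows the median was 14, with quartiles of 4 and 28, so all but the first 2 MX1 windows were below the median. Methylation was not measured.

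The values are deposited log2 expression, on which a difference of 1 is a factor of 2. Over measured symbols the array medians lay between 8.48 and 8.62 in HL60 and SNU398, at 8.60 and 8.61 on the HCT116 replicate 1 arrays and at 8.04 and 8.05 on the HCT116 replicate 2 arrays. Both HCT116 replicate 2 arrays list 0 for 28.6% of symbols, which were treated as not measured. The myeloid markers MPO and ELANE, 14.94 to 15.87 in HL60 and 7.47 to 7.77 in SNU398, fit the HL60 label. Of the epithelial markers, KRT8 (11.65 to 13.02) and KRT19 (11.24 to 13.14) set HCT116 apart from the other lines (7.55 to 8.01), while EPCAM overlapped between HCT116 (8.16 to 12.16) and SNU398 (10.90 to 11.47), and CDX2 was lower in HCT116 (8.48 to 8.60) than in SNU398 (9.16 to 9.54). Hepatocyte markers did not set SNU398 apart: albumin (ALB) was at 8.17 to 8.27 there and 8.38 to 8.99 in HL60, and APOA1 at 7.66 to 7.92 there and 7.77 to 8.11 in HL60. Same-numbered arrays of a line deviated together, so the combination was set against 5-Aza-CdR within each pair.

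In HCT116, all 8 of the genes measured in both pairs were higher under the combination than under 5-Aza-CdR alone in both pairs, with a median difference of 1.12, against 0.027 over all genes. Of 12349 genes, 30.0% were higher in both pairs. At least 2-fold in both pairs were 5 of the 8, MX1, IFI6, SAMD9, LGALS3BP and LY6E, and 0.105% of all genes. The genes were chosen with this comparison in view, and nothing is read from these counts. In bulk RNA of a line, more cells with a transcript and more transcript per cell cannot be told apart.

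MX1 restricts influenza and other viruses in the cytoplasm. In HCT116 it had 12.12 and 11.08 on the combination arrays, against 10.68 and 9.63 on the 5-Aza-CdR arrays. Its differences were 1.44 and 1.45, a mean of 1.44 ± 0.0092 (SD, n = 2 pairs) or 2.72-fold, the second largest difference of 12349 genes. The combination arrays lay above both 5-Aza-CdR arrays, and MX1 was the only one of the 8 whose groups did not overlap in this line, as was so, with the combination above, for 0.850% of all genes. MX2, which restricts HIV at the nuclear pore, had 9.46 and 7.98 under the combination, against 8.37 and 7.48 under 5-Aza-CdR. Its differences of 1.09 and 0.50 were less even than those of MX1, a mean of 0.79 ± 0.42 (SD, n = 2 pairs).

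IFI6, which guards the endoplasmic reticulum against flaviviruses, had 13.47 and 11.51 under the combination, against 12.39 and 10.39 under 5-Aza-CdR. IFI27, a hydrophobic protein of inner cell membranes, had 13.38 and 11.59 under the combination, against 12.52 and 10.46 under 5-Aza-CdR. Both genes overlapped between treatments, because each array numbered 2 lay below its partner of the same treatment, yet the pair differences were close: 1.08 and 1.12 for IFI6, and 0.86 and 1.13 for IFI27. The mean was 1.10 ± 0.028 for IFI6 and 0.99 ± 0.19 for IFI27 (SD, n = 2 pairs).

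SAMD9 restricts poxviruses, and in HCT116 it had 9.78 and 7.73 under the combination, against 8.66 and 6.37 under 5-Aza-CdR. LGALS3BP had 12.45 and 10.02 under the combination, against 11.43 and 8.49 under 5-Aza-CdR. LY6E, which hinders entry of coronaviruses, had 13.81 and 12.46 under the combination, against 12.73 and 11.26 under 5-Aza-CdR. In these 3 genes too the arrays numbered 2 were lower by more than 1 in both treatments, and the combination led in both pairs. The mean difference was 1.24 ± 0.18 for SAMD9, 1.28 ± 0.36 for LGALS3BP and 1.14 ± 0.089 for LY6E (SD, n = 2 pairs), which is 2.37-fold, 2.42-fold and 2.21-fold. These differences ranked 6, 4 and 8 among 12349 genes. The lowest SAMD9 value, 6.37, stood above 0.138% of the symbols on its array, and detection was not checked. The SAMD9 level on that array may be known only as a bound, and the mean difference, fold and rank are those of the listed values.

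The paralogue pair IFI44 and IFI44L, cytoplasmic proteins whose genes are widely used as readouts of interferon, differed least among those measured. IFI44 had 9.95 and 9.23 under the combination, against 9.63 and 8.34 under 5-Aza-CdR in HCT116, with overlapping groups and differences of 0.32 and 0.89. IFI44L had 8.36 under the combination and 8.41 under 5-Aza-CdR on the replicate 1 arrays and was listed at 0 on both replicate 2 arrays, so it has 1 pair, with a difference of -0.045. SAMD9L has no value in HCT116.

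**Figure D2:**
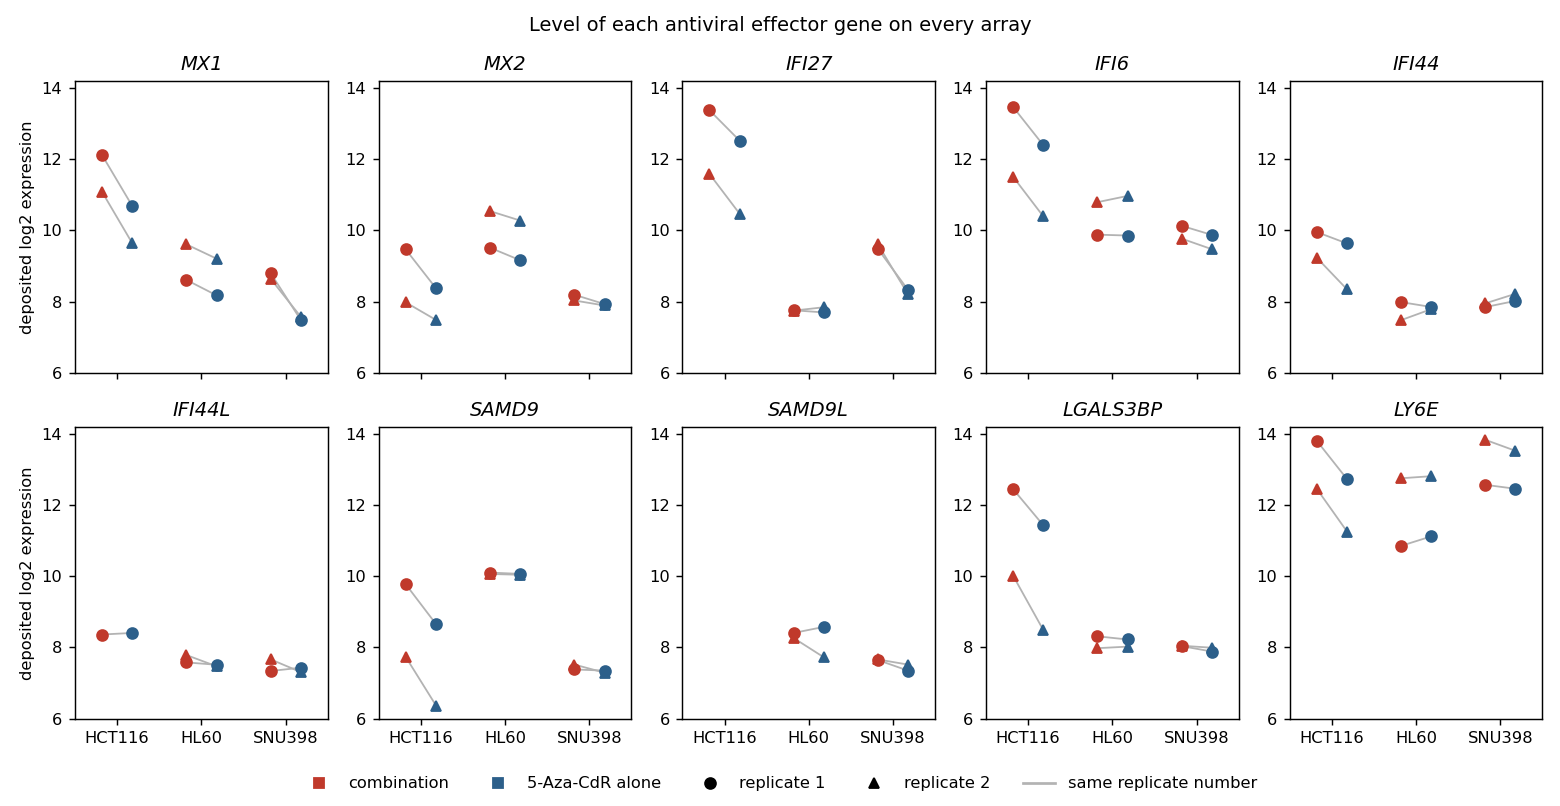
Deposited log2 expression of each gene on every array, by cell line, with the combination (red) left of 5-Aza-CdR alone (blue), replicate 1 as circles and replicate 2 as triangles. Grey lines join arrays of the same replicate number: in HCT116 they fall from red to blue for 8 genes, and in HL60 most are flat.

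In SNU398 the difference was carried by MX1 and IFI27, and the mean difference of each other gene lay within 0.28 of 0. Higher in both pairs were 8 of the 10 genes, and 29.6% of 19402 genes. MX1 and IFI27 were at least 2-fold higher in both pairs, as were 0.0361% of all genes. The median over the 10 was 0.21, against -0.0028 over all genes.

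MX1 had 8.80 and 8.64 in combination-treated SNU398 cells, against 7.48 and 7.57 under 5-Aza-CdR. IFI27 had 9.48 and 9.61 under the combination, against 8.32 and 8.20 under 5-Aza-CdR. The groups did not overlap for either gene, and the 2 arrays of each treatment lay close together. The mean difference was 1.20 ± 0.18 for MX1 and 1.29 ± 0.18 for IFI27 (SD, n = 2 pairs), and that of IFI27, 2.44-fold, ranked 2 of 19402 genes. On the 5-Aza-CdR arrays MX1 was near the low end of the array, where its lowest value stood above 1.31% of symbols, and detection was not checked. The 5-Aza-CdR level of MX1 may therefore be known only as a bound, and its difference is that of the listed values.

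IFI6 differed by 0.26 and 0.30 in the SNU398 pairs, and LY6E by 0.11 and 0.31, both with overlapping groups. MX2 differed by 0.26 and 0.14, SAMD9L by 0.30 and 0.15, SAMD9 by 0.033 and 0.23 and LGALS3BP by 0.15 and 0.055. In these 4 the combination arrays lay above the 5-Aza-CdR arrays by small margins, which with MX1 and IFI27 makes 6 of 10, against 12.6% of all genes. IFI44 ran the other way: it had 7.84 and 7.95 under the combination, against 8.02 and 8.22 under 5-Aza-CdR, and both combination arrays were below, as for 12.1% of all genes. Its paralogue IFI44L, with differences of -0.094 and 0.36, had overlapping groups at levels of 7.31 to 7.67, above at most 9.54% of an array's symbols. SAMD9, at 7.29 to 7.52 and above at most 2.82% of symbols, lay as near the low end of the scale in this line. So did SAMD9L, at 7.35 to 7.66 and above at most 9.28% of symbols, and detection was not checked.

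In HL60 the 10 genes had a median difference of 0.026, against 0.023 over all genes. Higher in both pairs were 4 of 10, MX1, MX2, IFI44L and SAMD9, and 28.0% of all 19402 genes. None reached 2-fold in both pairs, which 0.0361% of all genes did. MX1 had 8.61 and 9.61 under the combination, against 8.17 and 9.20 under 5-Aza-CdR. MX2 had 9.51 and 10.54 under the combination, against 9.16 and 10.28 under 5-Aza-CdR. For both MX genes the arrays numbered 2 were about 1 unit above those numbered 1 in each treatment, so the groups overlapped, but the pairs agreed: 0.44 and 0.40 for MX1, and 0.35 and 0.27 for MX2.

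The other genes were near 0 in HL60 or differed between its pairs. IFI27, the second largest difference of SNU398, had 7.75 and 7.74 under the combination, against 7.69 and 7.84 under 5-Aza-CdR in HL60. IFI6 had 9.88 and 10.79 under the combination, against 9.86 and 10.97 under 5-Aza-CdR. SAMD9 was steady, at 10.11 and 10.07 under the combination and 10.07 and 10.05 under 5-Aza-CdR. LY6E was lower in both pairs, by differences of -0.27 and -0.059, while its levels ran between 10.86 and 12.82 and followed the replicate number. SAMD9L differed by -0.17 and 0.54, IFI44 by 0.14 and -0.31, IFI44L by 0.066 and 0.32 and LGALS3BP by 0.090 and -0.044. IFI44L alone (1 of 10) had combination arrays above both 5-Aza-CdR arrays, against 8.37% of all genes. Its levels ran from 7.47 to 7.79, the lowest above 3.82% of symbols, and detection was not checked. Pair 2 of HL60 was wide over all genes, with an SD of the differences of 0.552 against 0.158 in pair 1, and ribosomal protein genes had a median of 0.57 in pair 2 and -0.025 in pair 1.

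**Figure D3:**
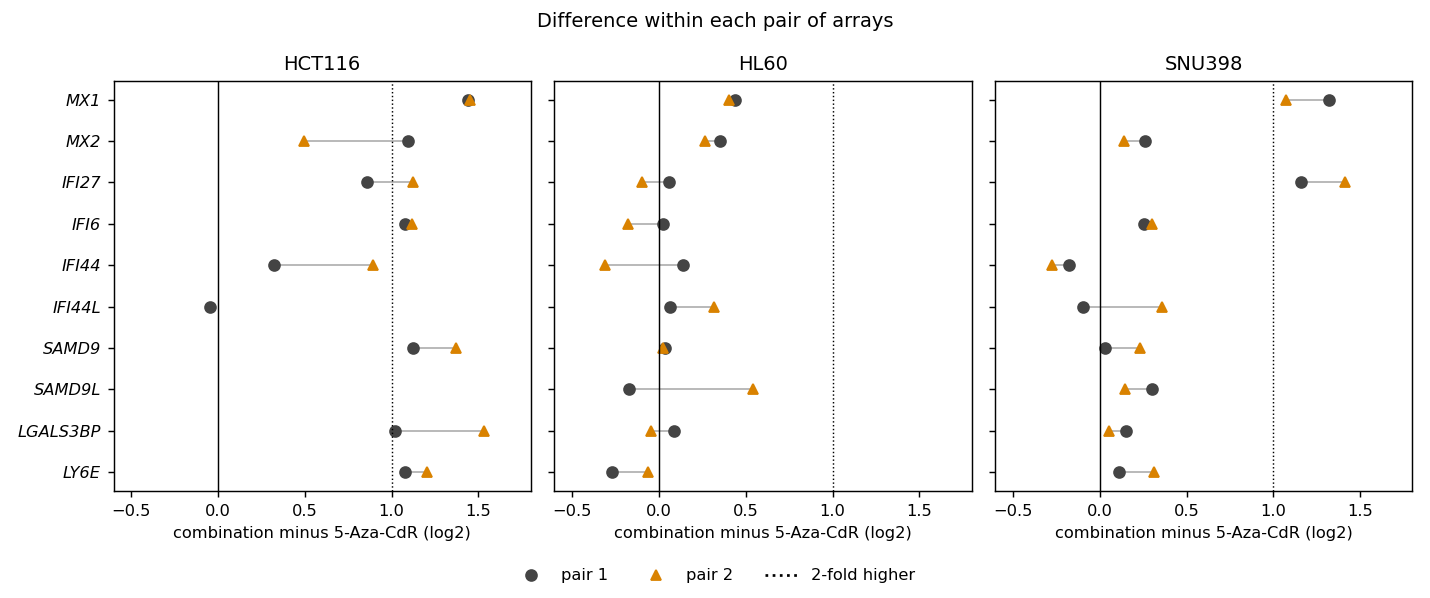
Combination minus 5-Aza-CdR (log2) of each gene within pair 1 (circles) and pair 2 (triangles) of each line. The dotted line marks 2-fold: 5 genes lie beyond it with both pairs in HCT116, MX1 and IFI27 in SNU398, and none in HL60.

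Across the table, the limma fit to the 6 group means with Benjamini-Hochberg adjustment called 0 of 12349 genes in HCT116, 0 of 19402 in HL60 and 0 of 19402 in SNU398 (0% in each line), these genes included. At an unadjusted p under 0.05 it had 4, 26 and 32 genes in the same order. Fitted to the pairs of each line alone, limma called 0.170% of genes higher in HCT116, 0% in HL60 and 2.43% in SNU398. Those calls include 6 of the 8 genes in HCT116 (MX1, IFI27, IFI6, SAMD9, LGALS3BP and LY6E), 0 of 10 in HL60 and 2 of 10 in SNU398 (MX1 and IFI27). With all 6 pairs in 1 fit no gene was called in any line. These counts repeat the differences by which the genes were chosen and are given as description.

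MX1, MX2 and SAMD9 were higher under the combination in all 6 pairs, and the share of all genes that were so was not counted. The smallest pair difference was 0.40 for MX1, 0.14 for MX2 and 0.022 for SAMD9. IFI27 differed by 0.86 or more in both pairs of HCT116 and SNU398, and IFI6, SAMD9, LGALS3BP and LY6E passed 2-fold in HCT116 alone, though a difference between lines was not tested for any of them. The neighbours MX1 and MX2 both differed by more in HCT116 than in HL60, but in SNU398 MX1 had 1.32 and 1.07 where MX2 had 0.26 and 0.14.

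Likeness to each gene was measured by the root mean square distance over the 6 pair differences, among 12341 other genes measured on all 12 arrays. For MX1 the nearest were IFIT1, at 0.40, and BLOC1S1, at 0.43, and for IFI27 they were IFIT1, at 0.17, and AMY1C, at 0.33. IFIT1 encodes a protein that binds foreign RNA, and it differed by 0.69 and 1.10 in the HCT116 pairs, 0.20 and 0.052 in those of HL60 and 0.98 and 1.13 in those of SNU398. The gene OASL, a relative of the oligoadenylate synthetases, was nearest to SAMD9 (0.19) and LGALS3BP (0.22) and second for IFI6 (0.15) and LY6E (0.18). TAPBP, the peptide-loading chaperone tapasin, was nearest to IFI6 (0.14) and LY6E (0.15). LOC644936 was second for SAMD9 (0.20) and LGALS3BP (0.23). TERF1 and NFKBIA were nearest to MX2, at 0.24 each, and KRT19 (0.12) and RFFL (0.14) to IFI44.

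The levels of the genes were also compared between lines. This comparison used the mean of the combination and 5-Aza-CdR array of each pair and set the 2 HL60 pair means against the 2 of SNU398 in limma. Such a mean still holds part of the difference between treatments by which the genes were chosen, so each call is given beside its value within each treatment. HCT116 was left out because its arrays cover other symbols and may have been normalized apart. At the threshold of 0.05 for the adjusted p, 1245 of 19402 genes (6.42%) were called, 449 higher in HL60 and 796 lower. Among the 10 genes, SAMD9 was called higher in HL60, also within each treatment, and IFI27 was called lower in HL60 but not within 5-Aza-CdR alone.

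SAMD9, a gene whose inherited variants cause bone marrow disease, averaged 10.07 ± 0.022 in HL60 and 7.39 ± 0.028 in SNU398 (SD, n = 2 pair means each). The SNU398 values stood above at most 2.82% of an array's symbols and detection was not checked, so only a bound is known on that side, and no fold is given. The log2 difference was 2.69 ± 0.17 (SE), with an adjusted p of 0.013 by limma. Every HL60 array lay above every SNU398 array by more than 2. It was also called on the combination arrays alone (2.63, adjusted p = 0.0089) and on the 5-Aza-CdR arrays alone (2.74, adjusted p = 0.023).

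IFI27 averaged 7.76 ± 0.048 in HL60 and 8.90 ± 0.0029 in SNU398 (SD, n = 2 pair means each). The difference was -1.15 ± 0.17 (SE), with an adjusted p of 0.049 by limma. In HL60 the gene stood above 14.1% to 32.6% of symbols and detection was not checked, so the difference may be known only as a bound. On the combination arrays alone the difference was -1.80 (adjusted p = 0.017). On the 5-Aza-CdR arrays alone it was -0.49 and not called (adjusted p = 0.31), so the call on pair means rests on the difference between treatments in SNU398 and is no independent test of level. The SNU398 arrays of 5-Aza-CdR, at 8.20 and 8.32, lay above all HL60 arrays.

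Without either SNU398 pair no gene of the table was called, and the adjusted p was 0.35 to 0.36 for SAMD9 and 0.50 to 0.53 for IFI27, although their differences stayed between 2.67 and 2.71 and between -1.18 and -1.11. With HCT116 in the same fit neither was called (adjusted p = 0.18 for SAMD9 and 0.50 for IFI27).

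MX2 averaged 9.87 ± 0.76 in HL60 and 8.01 ± 0.072 in SNU398 (SD, n = 2 pair means each), a difference of 1.86 ± 0.43 (SE) that was not called (adjusted p = 0.11 by limma). Every HL60 array was above every SNU398 array, but the HL60 pairs were themselves 1.07 apart. MX1 differed by 0.78 ± 0.41 (SE), SAMD9L by 0.70 ± 0.25 (SE) and LY6E by -1.21 ± 0.80 (SE), with adjusted p of 0.34, 0.22 and 0.41 in limma. IFI6 differed by 0.56, IFI44 by -0.23, IFI44L by 0.15 and LGALS3BP by 0.14, with adjusted p of 0.46 to 0.66. These 7 are not shown to be alike in both lines. In SNU398, SAMD9L and IFI44L stood above at most 9.28% and 9.54% of symbols, so their differences may be known only as bounds.

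**Figure D4:**
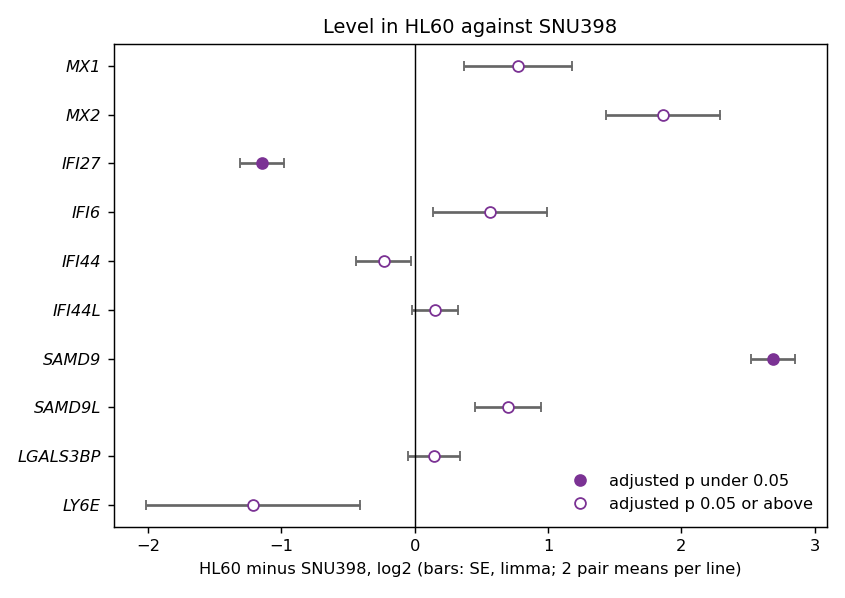
HL60 minus SNU398 (log2) of each gene from 2 pair means per line, with the SE of the limma fit. Filled points mark an adjusted p under 0.05, SAMD9 at 2.69 and IFI27 at -1.15 (not called within 5-Aza-CdR alone), and the widest bar is that of LY6E.

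HCT116 levels were described only. LGALS3BP ran from 8.49 to 12.45 in HCT116, from 7.98 to 8.31 in HL60 and from 7.89 to 8.05 in SNU398, so all HCT116 arrays were higher. IFI27 ran from 10.46 to 13.38 in HCT116, above every array of SNU398 (8.20 to 9.61) and HL60 (7.69 to 7.84). MX1 ran from 9.63 to 12.12 in HCT116, above HL60 (8.17 to 9.61) and SNU398 (7.48 to 8.80). The order of the lines was not the same for all: SAMD9 ran from 6.37 to 9.78 in HCT116, below every array of HL60 (10.05 to 10.11), and MX2 overlapped between HCT116 (7.48 to 9.46) and both other lines. LY6E stood above at least 85.0% of the symbols on every array, with 11.26 to 13.81 in HCT116, 10.86 to 12.82 in HL60 and 12.46 to 13.84 in SNU398, and these ranges overlap. IFI6 overlapped likewise, at 10.39 to 13.47 in HCT116, 9.86 to 10.97 in HL60 and 9.47 to 10.13 in SNU398, where the lowest HCT116 array was above all of SNU398.

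Further genes were taken from 5 lists, of interferon genes and of relatives that are not interferon genes. Counted together with the cell type and ribosomal markers, 140 of 166 listed genes had values. Of the other interferon-induced effectors, 51 of 57 had values, and their median difference between treatments was 0.25 over 38 genes in HCT116, 0.020 over 50 in HL60 and 0.083 over 50 in SNU398. In HCT116, 21 were higher and 2 lower in both pairs. HL60 had 17 higher and 11 lower in both pairs, and SNU398 had 27 higher and 7 lower. Of all genes, 30.0% were higher in both pairs in HCT116, 28.0% in HL60 and 29.6% in SNU398. The share of all genes lower in both pairs was not counted. The fit to the pairs of each line called 4 of them higher in HCT116, 0 in HL60 and 8 in SNU398, and 0 lower in any line. The same fit called 0.170%, 0% and 2.43% of all genes higher in these lines. As no gene of the table was called without pairing or with all 6 pairs in 1 fit, calls of list genes here and below rest on the fit to the pairs of 1 line. The 4 in HCT116, named after their values were seen, were OAS1 (1.36), OASL (1.09), IFITM2 (1.06) and IFITM3 (1.68, adjusted p = 1.6e-05 by limma). IFITM3 blocks virus entry at endosomes, and it differed by 1.60 and 1.75 in the HCT116 pairs, -0.027 and 0.10 in those of HL60 and 0.44 and 0.72 in those of SNU398.

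Some other effectors had their larger differences in HL60, where the list median was 0.020. IFIT2, a partner of IFIT1, differed by 1.21 and 1.17 in HL60, 0.33 and 0.77 in HCT116 and 0.50 and 0.60 in SNU398. ISG20, an exonuclease for RNA, differed by 1.05 and 1.04 in HL60, 0.75 and 0.55 in HCT116 and 0.20 and 0.13 in SNU398. With IFI16 (mean 1.19), a DNA sensor named after its values were seen, these were the effectors at least 2-fold higher in both HL60 pairs. They were 3 of 50, against 0.0361% of all genes. In SNU398 it was 1 of 50, PARP12 (mean 1.08, also named after its values were seen), against 0.0361%. In HCT116 it was 4 of 38, those named above, against 0.105%. None was called in HL60 by either limma fit.

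Of the 18 receptor and signalling genes, 0 were called in HL60 and 6 were called higher in SNU398 by the fit to the pairs, and 0 were called lower in any line. Over all genes that fit called 0% higher in HL60 and 2.43% in SNU398. IRF9, a DNA-binding subunit of the complex that interferon activates, differed by 0.47 and 0.73 in SNU398, where it was called (adjusted p = 0.00089 by limma), by 0.72 and 0.30 in HCT116 and by 0.20 and 0.30 in HL60. STAT2 differed by 0.36 and 0.32 in SNU398 (adjusted p = 0.029), by 0.013 and 0.079 in HCT116 and by -0.056 and 0.28 in HL60. IRF7, which amplifies interferon production, was higher in all 6 pairs, by 0.45 and 0.70 in SNU398 (adjusted p = 0.0013), by 1.14 and 0.63 in HCT116 and by 0.46 and 0.48 in HL60. IL10RB, a receptor chain for type III interferon, was called in SNU398 with 0.29 and 0.39 (adjusted p = 0.031).

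Negative regulators were not called in any line (0 of 6 in HCT116, 0 of 8 in HL60 and 0 of 8 in SNU398), and their medians were 0.013, 0.10 and 0.021. USP18, which removes ISG15 and shuts off the receptor, differed by 0.025 in its 1 HCT116 pair, 0.036 and 0.023 in HL60 and 0.027 and 0.22 in SNU398. SOCS3, which blocks JAK kinases, differed by -0.20 and -0.23 in HL60. Ligands had values for 4 of 20 genes, with 0 called, and IFNL1 (listed as IL29) was at 7.48 to 7.63 in HL60 and 7.38 to 7.55 in SNU398. These IFNL1 levels lay below the lower quartile of every array of both lines. USP18 in HL60, at 7.61 to 7.79, was near that quartile (7.73 to 7.87). Detection was not checked, so such genes may not be detected, and nothing is read from their small differences. Relatives of the 10 genes that are not interferon genes, such as the fusion GTPases OPA1 and MFN2, the LY6-fold receptor PLAUR and the galectin LGALS1, had medians of 0.061, 0.028 and 0.071 in HCT116, HL60 and SNU398, and 0 were called. PLAUR was higher in all 6 pairs, from 0.25 to 1.16.

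**Figure D5:**
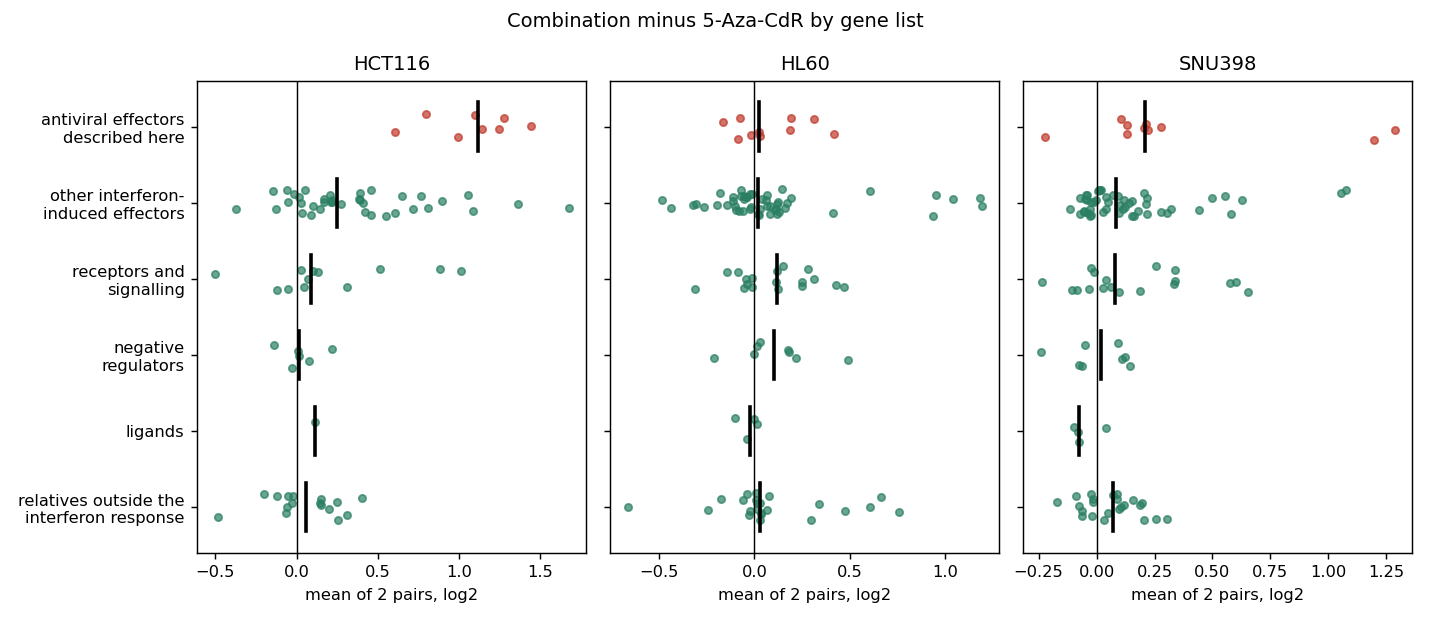
Mean of the 2 pair differences (combination minus 5-Aza-CdR, log2) of every gene measured in both pairs, by list and line, with the list median as a bar. The 10 genes described here (red) have their highest median in HCT116, at 1.12, with 0.21 in SNU398 and 0.026 in HL60, and they were chosen on these differences.

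ISRE core matches were also counted in these lists. They stood in the promoter windows of 31 of 48 other effectors (64.6%), 0 of 13 receptor and signalling genes, 1 of 6 negative regulators, 4 of 17 ligands and 1 of 21 relatives.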

How the data were processed

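Total RNA of 12 samples was read on Illumina bead arrays, per the labels' protocols. The authors deposited log2 values, 1 per symbol, with 17290 symbols for HCT116 and 19402 for HL60 and SNU398. The submitters' processing notes name limma, with the background correction not given in the sources used here. Exact zeros were treated as not measured, which leaves 12349 genes in both HCT116 pairs. A further table, 44 columns of 11 arrays, matches no label and was not used, so detection was not checked. The number of arrays limits the precision.

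limma 3.58.1 in R 4.3.3 (lmFit, eBayes, Benjamini-Hochberg, two-sided) was fitted to 6 group means over all arrays (6 residual degrees of freedom), to the pairs of a line (1) and to HL60 and SNU398 pair means (2). The fits were also run on simulated data with equal noise on every array. The HL60 pairs differ in spread, so that run does not test the fits on these data. The replicate numbers pair the arrays, since deviations of same-numbered arrays correlated by r = 0.907 in HCT116, 0.883 in HL60 and 0.841 in SNU398. Figures and counts used Python 3.11.15. Named genes were the 10 members, the 4 largest mean differences per list, STAT2, IRF7, IRF9 and USP18, and the 2 nearest genes per member. Members, lists and fits were chosen with earlier results of these data known, the fit to the pairs of a line after its calls had been seen. A further signalling gene that the rule names is not reported here.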

Additional observations from a re-analysis of the deposited data

Results flagged for a closer look

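IFI44 and LY6E moved one way in both pairs of a line and the other way in both pairs of another, which was not tested. For IFI44 the difference between combination and 5-Aza-CdR was larger by 0.83 in HCT116 than in SNU398, where both pairs were below 0. LY6E was higher in both HCT116 pairs and lower in both HL60 pairs, a gap of 1.31. The mean difference of LY6E in HL60 minus that in SNU398, where both pairs were above 0, was -0.37. LY6E stood at 10.86 and 12.76 on the HL60 combination arrays and at 11.12 and 12.82 on those of 5-Aza-CdR.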

How the results depend on the processing

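With the replicate block in the pairs of 1 line alone, 25 genes were called in HCT116 and 710 in SNU398, against 0 in the unpaired fit, and 0 in HL60. With the block over all 12 arrays 0 were called in each line. In HL60 the median of the members was -0.085 after quantile normalization (8 members) and -0.047 among genes with a mean of at least 9 (4 members). In SNU398 it was 0.74 under that filter (4 members) and 0.26 in pair 2 alone, an alternative added after seeing the data. The filter used the mean over all 12 arrays of the 3 lines. MX1 and IFI27 averaged 8.12 and 8.90 in SNU398 and passed only through HCT116, so nothing is read from the 0.74. Leaving out 1 array gave medians of 0.10 to 1.99 in HCT116, -0.074 to 0.21 in HL60 and 0.16 to 0.22 in SNU398. In each line this sets 1 array against the mean of 2, so the gap between replicates enters the difference. In HCT116 the medians of the replicate 1 and replicate 2 arrays differ as well.

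Between HL60 and SNU398, 664 of 19402 genes were called on the 5-Aza-CdR arrays alone (1 of 10 members). With no replicate block 7011 of 19402 were called (4 of 10 members), and with HCT116 in the fit 497 (0 members). Among the fewer genes with a mean of at least 9, 721 were called (0 of 2 members). Nothing is read from the member counts here and below. The filter on the mean, here over the HL60 and SNU398 pair means, left out SAMD9 and IFI27, so neither was tested under it. After quantile normalization, and with trend and robust variance, 1 member was called, since the adjusted p of IFI27 was 0.058 and 0.0504. Leaving out a pair gave 0 to 9612 genes and 0 to 5 members, with 9612 without HL60 replicate 1, 4266 without HL60 replicate 2 and 0 without either SNU398 replicate. Of values for single genes, 314 kept their side of the threshold or moved within the replicate spread, 70 moved beyond it, 7 became called and 9 lost the call. Many of the 314 could not move. The replicate blocks, trend and robust variance, zeros kept as values and the filter leave a gene's difference between treatments as it was. Among the values for single genes, 21 uncalled differences between treatments changed sign, 19 of them on leaving out 1 array. For example, LGALS3BP in HCT116 was -0.20 without 5-Aza-CdR replicate 2, and MX1 in HL60 was -0.096 without 5-Aza-CdR replicate 1. LY6E was 0.79 in HL60 without combination replicate 1 and -0.42 in SNU398 without combination replicate 2. The other 2 sign changes were LGALS3BP in HL60 with centred arrays (-0.0060) and after quantile normalization (-0.098). Leaving out 1 array lets the gap between replicates into the difference, so those 19 do not describe the pairs. Within pairs, LGALS3BP differed by 1.02 and 1.53 in HCT116 and MX1 by 0.44 and 0.40 in HL60. LY6E differed by -0.27 and -0.059 in HL60 pairs and by 0.11 and 0.31 in those of SNU398. No level difference between HL60 and SNU398 changed sign.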
